A study of Gallus gallus with 12 samples.

Results

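The genes described are 10 actin-binding and contractile genes of fibroblasts: TAGLN, CALD1, CSRP1, CNN1, TPM1, MYL9, ACTA1, ACTA2, ACTG2 and CAV1. They were found as every probe set whose symbol in the array's gene annotation is one of these names. Of the 10 genes, 9 were measured, by 19 probe sets, out of 13008 genes and 37693 probe sets tested. No probe set carried the symbol CNN1 (calponin 1, an actin-binding protein of smooth muscle), and CNN1 was not analysed here. TPM1 had 8 probe sets, CALD1 had 4, and the other 7 genes had 1 each.

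Actin filaments pull on a cell's surroundings when non-muscle or smooth muscle myosin slides along them, and that motor is switched on by phosphorylation of its regulatory light chain. Tropomyosin, caldesmon, calponin and transgelin lie along or crosslink the filament, and tropomyosin and caldesmon affect where myosin may bind. Fibroblasts that spread on a stiff surface build thick filament bundles, called stress fibres, and use actin and actin-binding isoforms that are otherwise known from smooth muscle. Many of these genes carry binding sites for serum response factor, SRF, which works with myocardin and the myocardin-related factors MRTFA and MRTFB.

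RNA from White Leghorn chickens was measured on 12 Affymetrix chicken GeneChip arrays, 3 independent samples in each of 4 groups, with about 5 µg of total RNA per array. CEF are chicken embryonic fibroblasts, each sample made by trypsin digestion of 5 embryos at day 6.5 and grown in serum-containing medium to passage 2, with 6000000 cells extracted. The design text takes them from the embryonic body, while the sample labels name a muscular area. PGC (primordial germ cells, 270000 cells) and GSC (gonadal stromal cells, 9000000 cells) were separated with a magnetic cell sorter from the gonads of 100 mixed-sex embryos at day 6.5 per sample. Blastoderm samples (530000 cells) were dissociated stage X blastoderms from 5 freshly laid eggs each. No group carries a genetic change. The sources used here do not give the antibody of the sort. CEF were the only cultured cells, so culture and cell type cannot be told apart in any comparison with CEF. The 3 comparisons with CEF share the same 3 CEF arrays.

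Levels are the deposited log2 values, in which 1 unit is a 2-fold step, and they ran from 1.02 to 13.18. A level of 3.61 was taken as background, the 99th percentile of the 746 probe sets for viral and reporter sequences. Array medians lay between 3.45 and 3.60, and the lowest correlation between arrays of 1 group was 0.972, in PGC. The third PGC array stood toward GSC: the median level of a list of gonadal somatic genes was 5.45, 5.60 and 6.96 on the PGC arrays and 7.57 to 7.87 on the GSC arrays. The median of germ cell genes was 9.27, 9.14 and 8.49 on the same PGC arrays and 4.29 to 4.58 on the GSC arrays. RNA integrity, taken as the gap between 3′ and 5′ probe sets of the actin control (3′ minus 5′, log2), was 0.15 to 0.91 in CEF, 0.35 to 0.80 in PGC, 0.05 to 0.27 in GSC and 0.67 to 1.18 in blastoderm, and its part in the results was not tested.

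The label was checked against cell type markers. The collagen genes COL1A1 and COL1A2 were at 12.64 and 11.90 in CEF, 9.27 and 8.62 in PGC, 11.01 and 10.44 in GSC, and 3.63 and 2.67 in blastoderm (means of 3 arrays). Of 17 measured fibroblast genes, 16 were above background in CEF, 13 in PGC, 15 in GSC and 6 in blastoderm. The median level of that list was 9.22 to 9.69 in CEF, 5.80 to 7.06 in PGC, 7.61 to 7.74 in GSC and 3.02 to 3.22 in blastoderm. CEF carried the fibroblast markers, and GSC and PGC had most of them above background as well. The median level of 7 measured erythroid (red blood cell) genes was 10.50 to 11.73 in PGC and 11.57 to 12.55 in GSC. It was 3.77 to 4.17 in CEF and 4.17 to 4.44 in blastoderm. The part of blood cells in the PGC and GSC levels of the contractile genes was not tested.

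All 9 measured genes were higher in CEF than in each of the other groups. In each of the 3 comparisons 9 of 9 genes were called higher and 0 lower, and no CEF array overlapped with any array of another group. The share of all genes without such overlap was not counted, so the lack of overlap only describes these arrays. A gene or probe set is called where limma's moderated test gives an adjusted p below 0.05, with Benjamini-Hochberg adjustment over all 37693 probe sets. Of all genes, 22% were called higher and 27.7% lower in CEF against PGC, 20.2% higher and 22.3% lower against GSC, and 24% higher and 27.2% lower against blastoderm. All 3 comparisons called 10.7% of genes higher in CEF and 9.31% lower. These shares include genes that averaged within background in all 4 groups, 19.7% of all genes, while the 9 genes were above background on every CEF array. By probe set, 19 of 19 were called higher in CEF each time, where 19% of all probe sets were against PGC, 16% against GSC and 18.2% against blastoderm. Against GSC 6029 probe sets were called higher and 6715 lower, and with each array centred on its median the split was 8065 higher and 5871 lower. The median log2 fold change of the 9 genes was 4.59 against PGC, 4.44 against GSC and 4.35 against blastoderm, beside medians of 0.01, 0.02 and -0.05 over all genes. The first 2 of these medians are fitted differences of CAV1, which was within background outside CEF. With CAV1 and ACTA2 at the lower bounds given below, the medians were 3.85, 3.40 and 4.04. In bulk RNA a smaller share of expressing cells and less RNA per cell cannot be told apart. The p-values set a difference of group means against the moderated spread between samples within groups, pooled over the 4 groups of 3 samples.

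**Figure D1:**
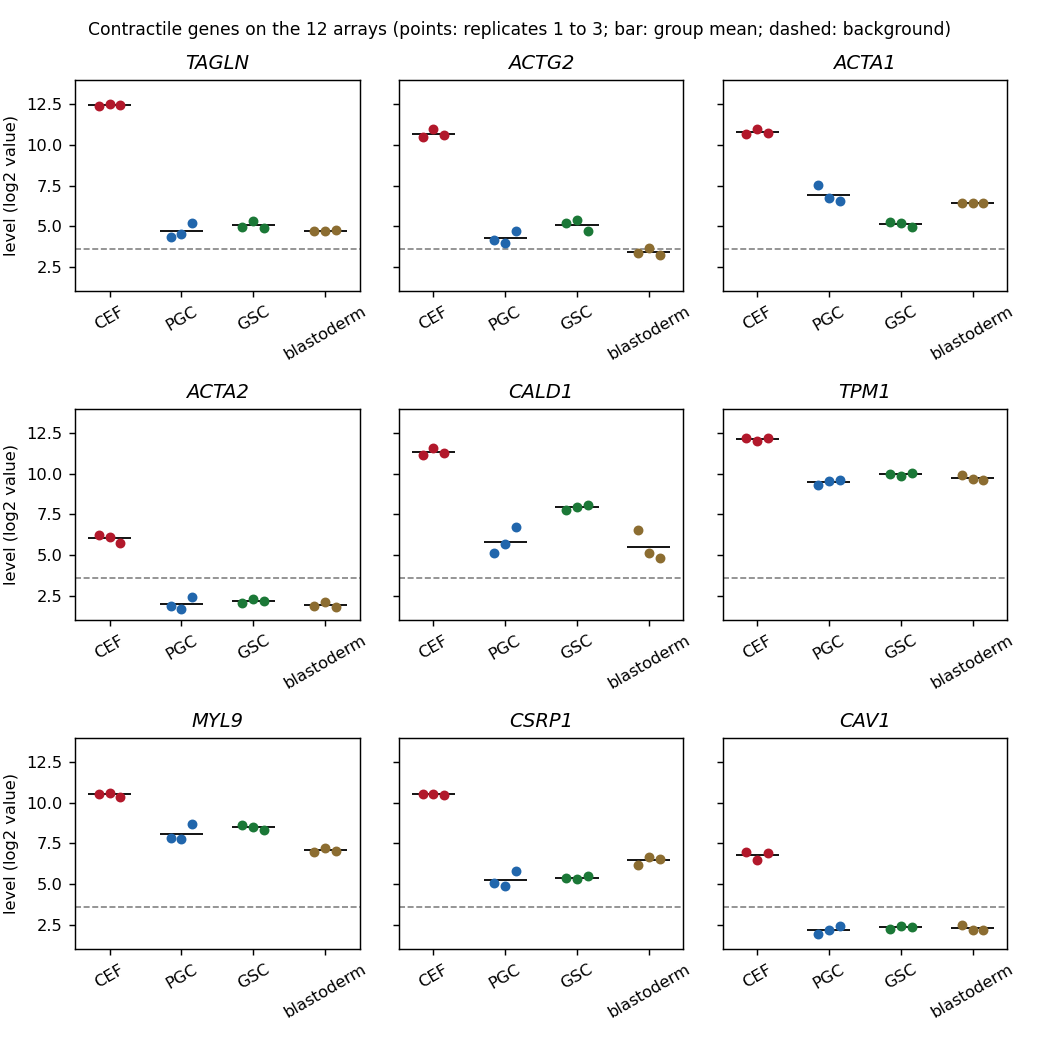
Level (log2 value, vertical axis) of each measured gene on the 12 arrays, with groups CEF, PGC, GSC and blastoderm along the horizontal axis, points for replicates 1 to 3, a bar for the group mean and a dashed line at the background of 3.61. The 3 CEF points lie above every other point in all 9 panels, and the PGC, GSC and blastoderm points of ACTA2 and CAV1 lie under the dashed line.

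The actins come first. The set holds 3 muscle actin genes: ACTA1 encodes skeletal muscle α-actin, ACTA2 the α-actin of vascular smooth muscle, and ACTG2 the γ-actin of enteric smooth muscle. Vertebrate actins are nearly identical in their coding sequence. The probe sequences were not used here, so cross-hybridisation between actin transcripts was not tested. Levels of different probe sets are not set against each other, because probes differ in brightness.

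ACTG2 read 10.51, 10.96 and 10.60 in CEF, 4.13, 3.98 and 4.72 in PGC, 5.22, 5.40 and 4.69 in GSC, and 3.38, 3.69 and 3.22 in blastoderm. All CEF arrays were at least 5.10 log2 units above the highest array of any other group, and 1 of 3 blastoderm arrays was above background. The log2 fold change of CEF was 6.41 ± 0.25 (SE) against PGC, which is 85.0-fold (adjusted p = 1.06e-11). It was 5.58 against GSC, or 47.9-fold (adjusted p = 5.85e-11), and 7.26 against blastoderm (adjusted p = 1.62e-12), with the same SE. Only 1 blastoderm array gives a level above background, and with the others set to background the difference was 7.05, or 133-fold. Of all 13008 genes, 7 had a larger fold change than ACTG2 in CEF against PGC.

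ACTG2 also differed among the uncultured groups, with the order GSC, PGC, blastoderm. It was lower in PGC than in GSC by 0.83 (log2 fold change -0.83, adjusted p = 0.0237), but the arrays of these groups overlapped, since the third PGC array, at 4.72, lay just above the third GSC array, at 4.69. That call was lost in 7 of 21 alternative analyses, for example without GSC replicate 2 (adjusted p = 0.123). The difference of 0.85 between PGC and blastoderm (adjusted p = 0.0123; 0.64 with the low blastoderm arrays at background) was lost without blastoderm replicate 3 (adjusted p = 0.0568). GSC exceeded blastoderm by 1.67 (adjusted p = 3.84e-05) with no overlap, and by 1.47, or 2.77-fold, with the low blastoderm arrays at background.

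ACTA1 read 10.69, 10.95 and 10.70 in CEF, 7.53, 6.73 and 6.55 in PGC, 5.29, 5.17 and 4.94 in GSC, and 6.44, 6.43 and 6.42 in blastoderm. All 12 arrays were above background, and the blastoderm arrays agreed within an SD of 0.01. CEF exceeded PGC by 3.85 ± 0.22 (14.4-fold, adjusted p = 8.87e-10), GSC by 5.65 (50.2-fold, adjusted p = 1.43e-11) and blastoderm by 4.35 (20.4-fold, adjusted p = 1.32e-10).

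ACTA1 was the only one of the 9 genes with its lowest mean level in GSC. PGC exceeded GSC by 1.80 (3.49-fold, adjusted p = 2.44e-05), and GSC was below blastoderm by a log2 fold change of -1.30 (adjusted p = 1.56e-04). None of these arrays overlapped. PGC and blastoderm differed by 0.51 (adjusted p = 0.0834), and without the third PGC array by 0.70 (adjusted p = 0.0149). The cardiac actin gene ACTC1, which was looked up after its values were seen, had means of 6.95 in CEF, 6.03 in PGC, 3.59 in GSC and 5.82 in blastoderm, the same order of groups. For ACTC1, PGC and blastoderm did not pass the test (0.21, adjusted p = 0.631). CEF was called higher than PGC (0.92, adjusted p = 0.0293), but their arrays overlapped. GSC was called lower than each other group (largest adjusted p 4.16e-05), with its arrays on both sides of background.

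ACTA2 read 6.25, 6.14 and 5.76 in CEF, 1.86, 1.69 and 2.43 in PGC, 2.06, 2.28 and 2.18 in GSC, and 1.90, 2.10 and 1.81 in blastoderm. Only the CEF arrays were above background. A fold against a group within background is a bound: the CEF mean was set against the background level wherever an array lay below it. Here and below, an adjusted p beside such a bound is that of the fitted difference, not of the bound. ACTA2 was at least 5.44-fold higher in CEF than in each other group, with adjusted p of 1.19e-10 against PGC, 2.44e-10 against GSC and 6.05e-11 against blastoderm. No fold is given among PGC, GSC and blastoderm.

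The cytoplasmic actins, named beside the set by rule, moved far less. ACTB averaged 12.41 in CEF, 11.59 in PGC, 11.84 in GSC and 11.83 in blastoderm, and was called higher in CEF each time, by 0.83, 0.58 and 0.58 on the log2 scale in that order. ACTG1 averaged 12.31 in CEF, 11.88 in PGC, 12.27 in GSC and 11.90 in blastoderm, and its difference of 0.04 from GSC did not pass the test (adjusted p = 0.733). The highest values of the CEF arrays were 12.80 to 12.84, and those of the blastoderm arrays 13.15 to 13.18. Whether the top of the scale limits fold changes of genes at this level was not tested.

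**Figure D2:**
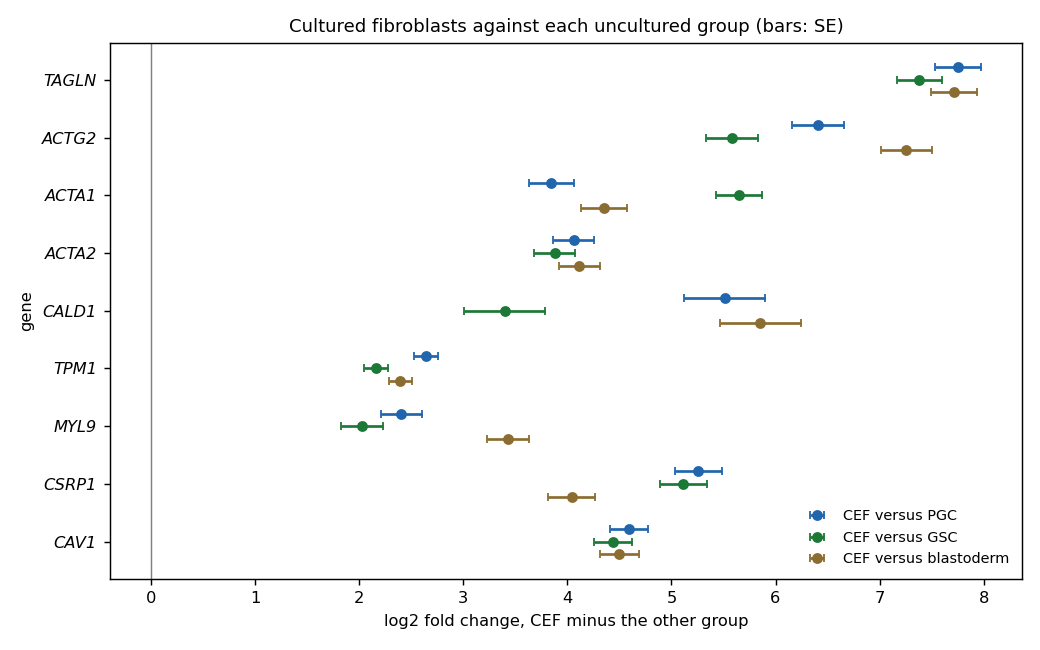
Log2 fold change of CEF over each uncultured group (horizontal axis) for the 9 measured genes (rows), with bars for the SE and 1 colour per comparison. TAGLN lies farthest right, between 7.38 and 7.75, and TPM1 and MYL9 lie nearest to 0, between 2.03 and 3.43, while the points of ACTA2 and CAV1 are fitted differences to groups within background.

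Among the proteins that bind the thin filament, TAGLN changed most. It encodes transgelin, also called SM22α, a small calponin-related protein that crosslinks actin and is widely used as an early smooth muscle marker. TAGLN read 12.38, 12.51 and 12.43 in CEF, 4.31, 4.52 and 5.22 in PGC, 4.96, 5.31 and 4.91 in GSC, and 4.69, 4.69 and 4.80 in blastoderm. CEF stood near the top of the array's range and all other arrays between 4.31 and 5.31, with a gap of at least 7.07 log2 units.

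The TAGLN fold change of CEF was 7.75 ± 0.22 against PGC (216-fold, adjusted p = 2.51e-13), 7.38 against GSC (167-fold, adjusted p = 6.72e-13) and 7.72 against blastoderm (210.4-fold, adjusted p = 3.4e-13). Of 13008 genes, 2 had a larger fold change against PGC, 2 against GSC and 11 against blastoderm. Among the uncultured groups no TAGLN difference passed the test. PGC and GSC differed by -0.37 (adjusted p = 0.271), and by -0.64 without the third PGC array (adjusted p = 0.0126). GSC and blastoderm differed by 0.33 (adjusted p = 0.264), and PGC and blastoderm by -0.04 (adjusted p = 0.908).

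CALD1 encodes caldesmon, an actin-, myosin- and tropomyosin-binding protein that restrains myosin's ATPase until it is phosphorylated. It has a long smooth muscle form and a shorter form in other cells. The probe set that stands for CALD1 read 11.17, 11.58 and 11.26 in CEF, 5.10, 5.67 and 6.70 in PGC, 7.78, 7.93 and 8.11 in GSC, and 6.54, 5.10 and 4.81 in blastoderm. GSC lay between CEF and the rest with no overlap, and PGC and blastoderm each spread over more than 1.5 log2 units.

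The CALD1 fold change of CEF was 5.51 ± 0.39 against PGC (45.7-fold, adjusted p = 1.13e-08), 3.40 against GSC (10.6-fold, adjusted p = 3.54e-06) and 5.85 against blastoderm (57.8-fold, adjusted p = 3.44e-09). CALD1 was lower in PGC than in GSC by a log2 fold change of -2.11 (4.33-fold lower, adjusted p = 9.32e-04). GSC exceeded blastoderm by 2.45 (5.48-fold, adjusted p = 8.12e-05), while PGC and blastoderm differed by 0.34 (adjusted p = 0.522). The SDs of CALD1 were the largest of the 9 genes, 0.81 in PGC and 0.93 in blastoderm.

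In the comparisons with CEF the 4 CALD1 probe sets differed less among themselves than those of TPM1. CEF exceeded PGC by 4.65 to 5.70, GSC by 3.36 to 3.67 and blastoderm by 5.68 to 5.90 on the log2 scale, and all 4 were called each time. Between PGC and GSC 3 of 4 were called lower in PGC, and the remaining one differed by -1.02 (adjusted p = 0.108). All 4 were called higher in GSC than in blastoderm. Between PGC and blastoderm 1 of 4 was called higher in PGC (1.20, adjusted p = 0.036), with overlapping arrays. That probe set was above background on only 1 of 3 blastoderm arrays, as was the one with the difference of 5.90. The latter also gave the 5.70 against PGC, where it was above background on 2 of 3 arrays. Which caldesmon form each probe set detects was not examined.

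TPM1 encodes α-tropomyosin, a coiled-coil dimer that runs along the actin filament and is spliced into muscle and non-muscle forms. Its representative probe set read 12.17, 12.02 and 12.19 in CEF, 9.28, 9.56 and 9.61 in PGC, 10.01, 9.85 and 10.04 in GSC, and 9.90, 9.67 and 9.62 in blastoderm. All arrays were far above background, and CEF lay above the rest by at least 1.97. CEF exceeded PGC by 2.64 ± 0.11 (6.25-fold, adjusted p = 3.31e-11), GSC by 2.16 (4.47-fold, adjusted p = 3.7e-10) and blastoderm by 2.39 (5.26-fold, adjusted p = 5.97e-11).

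The 8 TPM1 probe sets did not give 1 fold change. All 8 were called higher in CEF in each comparison, by 2.16 to 4.95 against GSC and 2.39 to 5.11 against blastoderm. Against PGC the 7 probe sets above background in PGC differed by 2.64 to 4.88. The largest fold against GSC was 30.9, on a probe set that read 9.70, 9.63 and 9.44 in CEF and 5.04, 4.33 and 4.54 in GSC. Next came a probe set at 28.8-fold against GSC, where it was above background on only 2 of 3 arrays. It was within background on all PGC arrays and at least 33.6-fold higher in CEF than in PGC. The probe set that stands for TPM1 had the smallest fold in all 3 comparisons. Some of these probe sets end in _s_at or _x_at, the maker's mark for probes that match several transcripts. The one that stands for TPM1 is itself an _s_at set.

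Between PGC and GSC TPM1 was lower in PGC by a log2 fold change of -0.48 (1.40-fold, adjusted p = 5.23e-03), with no overlap. By probe set 6 of 8 were called lower in PGC and none higher. The differences between GSC and blastoderm (0.24, adjusted p = 0.121) and between PGC and blastoderm (-0.25, adjusted p = 0.0971) did not pass the test. By probe set 3 of 8 were called higher in GSC than in blastoderm, and 1 of 8 was called lower in PGC than in blastoderm (-0.38, adjusted p = 0.0322).

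**Figure D3:**
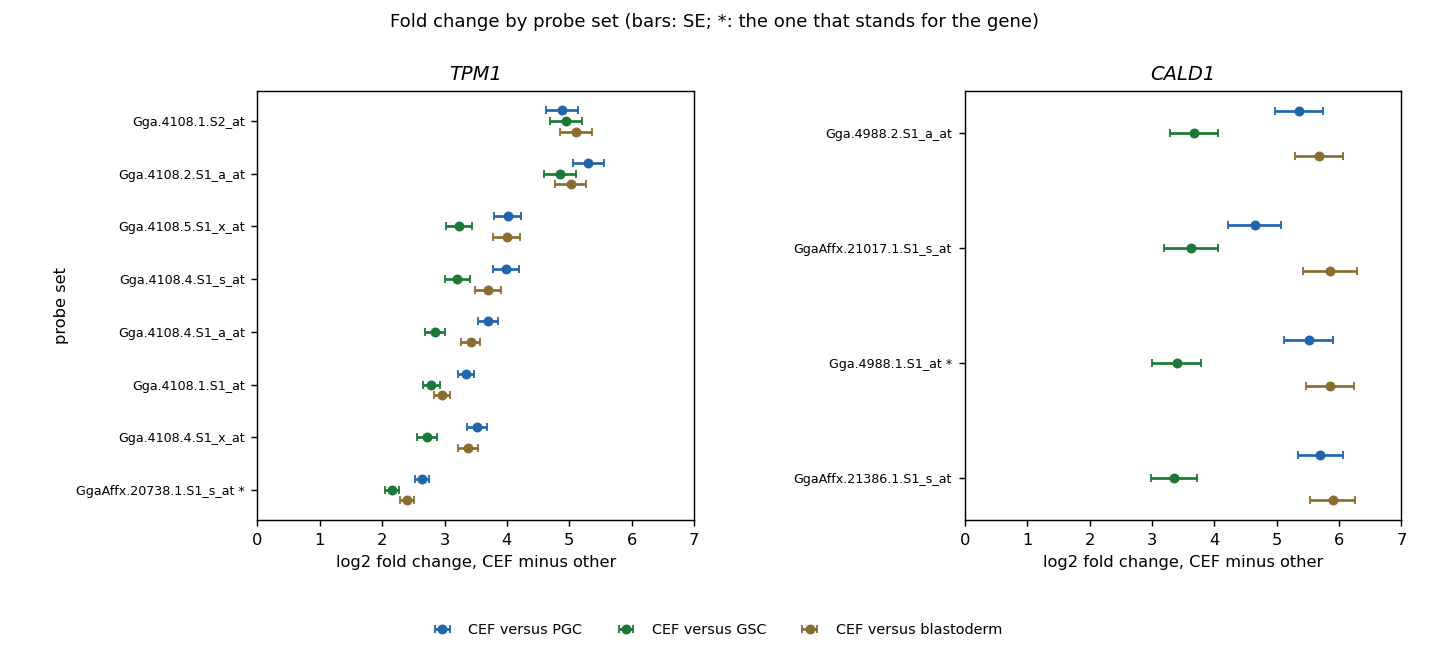
Log2 fold change of CEF over PGC, GSC and blastoderm (horizontal axis, bars for the SE) for each of the 8 TPM1 probe sets (left) and the 4 CALD1 probe sets (right), with a star on the probe set that stands for the gene. The TPM1 probe sets spread from 2.16 to 4.95 against GSC, and the CALD1 probe sets from 3.36 to 3.67.

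CSRP1 encodes a LIM-domain protein that binds α-actinin and zyxin on actin bundles. CSRP1 read 10.52, 10.55 and 10.44 in CEF, 5.08, 4.85 and 5.81 in PGC, 5.39, 5.31 and 5.47 in GSC, and 6.16, 6.68 and 6.55 in blastoderm. Blastoderm came next after CEF, above every PGC and GSC array. CEF exceeded PGC by 5.26 ± 0.23 (38.2-fold, adjusted p = 3.45e-11), GSC by 5.11 (34.6-fold, adjusted p = 5.82e-11) and blastoderm by 4.04 (16.5-fold, adjusted p = 4.39e-10).

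CSRP1 was the only one of the 9 genes called lower in both gonadal groups than in blastoderm. The log2 fold change was -1.22 in PGC (2.32-fold lower, adjusted p = 3.92e-04) and -1.07 in GSC (2.11-fold lower, adjusted p = 1.06e-03). PGC and GSC differed by -0.14 (adjusted p = 0.729), and their arrays overlapped.

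MYL9 encodes the regulatory light chain of smooth muscle and non-muscle myosin II, whose phosphorylation turns the motor on. MYL9 read 10.52, 10.61 and 10.37 in CEF, 7.85, 7.77 and 8.67 in PGC, 8.64, 8.47 and 8.31 in GSC, and 6.98, 7.22 and 7.02 in blastoderm. The third PGC array lay above all GSC arrays, and blastoderm lay below every other array. CEF exceeded PGC by 2.40 ± 0.20 (5.30-fold, adjusted p = 7.02e-08), GSC by 2.03 (4.07-fold, adjusted p = 6.18e-07) and blastoderm by 3.43 (10.8-fold, adjusted p = 7.09e-10).

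MYL9 was higher than in blastoderm in both gonadal groups, by 1.02 in PGC (2.03-fold, adjusted p = 6.2e-04) and by 1.40 in GSC (2.64-fold, adjusted p = 2.61e-05). PGC and GSC differed by -0.38 (adjusted p = 0.211), and by -0.66 without the third PGC array (adjusted p = 2.49e-03). The gene of the kinase that phosphorylates this chain, MYLK, was looked up after its values were seen. It averaged 8.33 in CEF, 8.41 in PGC, 8.57 in GSC and 5.38 in blastoderm, and CEF passed the test only against blastoderm.

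CAV1 encodes caveolin 1, the coat protein of caveolae, membrane pits that flatten under tension and are tethered to actin. CAV1 read 6.97, 6.49 and 6.88 in CEF, 1.94, 2.20 and 2.41 in PGC, 2.24, 2.39 and 2.38 in GSC, and 2.49, 2.16 and 2.18 in blastoderm. As for ACTA2, all arrays outside CEF were within background. CAV1 was at least 9.0-fold higher in CEF than in each other group, with adjusted p of 1.66e-11 against PGC, 3.03e-11 against GSC and 1.28e-11 against blastoderm.

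Among the uncultured groups the 9 genes followed no common order. PGC against GSC gave 1 gene called higher (ACTA1), 3 lower (ACTG2, CALD1 and TPM1) and 5 that did not pass, where 16.8% of all genes were called higher and 13.5% lower. PGC against blastoderm gave 2 higher (ACTG2 and MYL9), 1 lower (CSRP1) and 6 that did not pass, where 26.3% of all genes were called higher and 23.5% lower. GSC against blastoderm gave 3 higher (ACTG2, CALD1 and MYL9), 2 lower (ACTA1 and CSRP1) and 4 that did not pass, where 24.8% of all genes were called higher and 25.4% lower. ACTA2 and CAV1, within background in all 3 groups, count among those that did not pass. Over the other 7 genes the median log2 fold changes were -0.38, 0.34 and 0.33 in that order of comparisons, and those of all genes -0.02, -0.07 and -0.07.

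**Figure D4:**
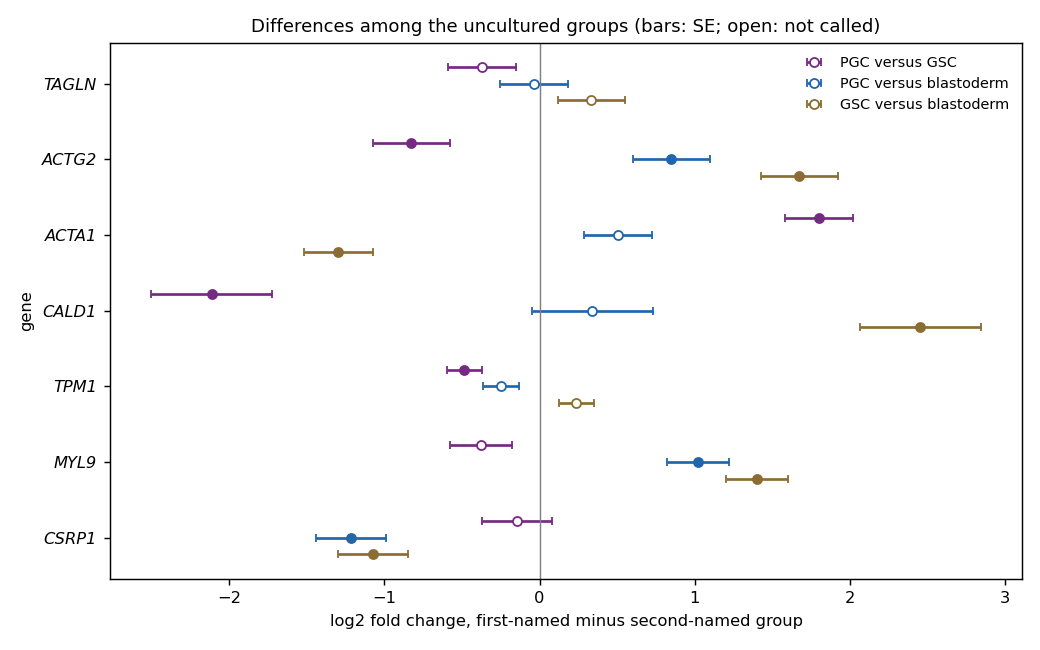
Log2 fold change between the uncultured groups (horizontal axis, first-named minus second-named group, bars for the SE) for the 7 genes above background in at least 1 of them (rows), with filled points for called differences and open points for the rest. CALD1 spans from -2.11 (PGC against GSC) to 2.45 (GSC against blastoderm), and ACTA1 has the opposite signs, 1.80 and -1.30.

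The third PGC array was the highest of its group for 8 of the 9 genes, the exception being ACTA1, where it was the lowest. Among the 8 are ACTA2 and CAV1, whose PGC arrays were all within background, so their order there carries no weight. The same array was the PGC array nearest to GSC in gonadal somatic genes: NR5A1, a gonadal somatic regulator, read 5.94, 6.02 and 7.46 on the PGC arrays and 7.97 to 8.22 on the GSC arrays. COL1A1 read 8.74, 8.79 and 10.29 on the PGC arrays and 10.85 to 11.14 on the GSC arrays. The part of other gonadal cells in the PGC levels of the contractile genes was not tested. SDs of the 9 genes ran from 0.05 to 0.26 in CEF, 0.18 to 0.81 in PGC, 0.08 to 0.37 in GSC and 0.01 to 0.93 in blastoderm.

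Markers of muscle cells were set beside the CEF levels, because the sample labels name a muscular area. Of 25 measured skeletal muscle genes, 9 were above background in CEF, 5 in PGC, 6 in GSC and 5 in blastoderm, and the list's median level was 3.19 to 3.30 in CEF, 2.72 to 2.93 in PGC, 2.66 to 2.91 in GSC and 2.87 to 3.12 in blastoderm. The myogenic regulators MYOD1, MYF5 and MYOG averaged 3.03, 2.78 and 3.51 in CEF, all within background. The fast troponin C gene TNNC2 averaged 3.36 in CEF, and the fast muscle light chain gene MYLPF also 3.36. TNNT3, a fast troponin T gene, averaged 4.24 in CEF and 4.22 in GSC, and the muscle intermediate filament gene DES 3.73 in CEF and 4.12 in blastoderm. Of the 25 genes, 8 were called higher and 5 lower in CEF than in PGC. Against GSC 5 were higher and 1 lower, and against blastoderm 6 were higher and 1 lower. Over all genes the shares higher and lower were 22% and 27.7% against PGC, 20.2% and 22.3% against GSC, and 24% and 27.2% against blastoderm. Against GSC and blastoderm the counts called higher lay near these shares. In all 3 comparisons 4 of the 25 were higher in CEF, beside 10.7% of all genes. Those 4 were MYH15, TNNI2, MYL1 and MYLPF, of which MYH15 and TNNI2 averaged above background in CEF. MYH15, a myosin heavy chain gene, averaged 8.24 in CEF, 2.31 in PGC, 2.27 in GSC and 2.24 in blastoderm, and was at least 24.7-fold higher in CEF (largest adjusted p 3.03e-11). TNNI2, a fast troponin I gene, averaged 3.93 in CEF, 2.45 in PGC, 2.75 in GSC and 2.93 in blastoderm. Of 9 measured cardiac muscle genes, 3 were above background in CEF, 4 in PGC, 4 in GSC and 3 in blastoderm. CEF had 6 of these 9 called higher and 2 lower against PGC, 5 and 2 against GSC, and 5 and 1 against blastoderm. In all 3 comparisons 4 were higher, beside the shares over all genes given above. Only 3 of the 9 averaged above background in CEF, so some of these higher calls are of genes within background there. ACTC1, 1 of those higher in all 3, is also counted among the contractile partners below. The part of muscle cells in the CEF levels was not tested.

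For smooth muscle and pericytes, 7 of 9 measured genes were above background in CEF, 3 in PGC, 4 in GSC and 2 in blastoderm, and the list's median level was 4.71 to 5.31 in CEF, 3.13 to 3.50 in PGC, 3.30 to 3.74 in GSC and 2.90 to 3.15 in blastoderm. Smooth muscle myosin heavy chain, MYH11, the defining gene of mature smooth muscle, averaged 2.23 in CEF, 1.95 in PGC, 1.95 in GSC and 2.76 in blastoderm, within background in all 4 groups. MYOCD (myocardin, a smooth muscle and cardiac coactivator of SRF) averaged 4.59 in CEF and was within background in the other groups, at least 1.97-fold higher in CEF (largest adjusted p 7.65e-06). Of the 9 genes of that list, 5 were called higher in CEF than in PGC, 4 against GSC and 5 against blastoderm, with 4 in all 3: MYOCD, KCNMB1, CSPG4 and PDE5A. None was called lower in CEF than in PGC, 1 than in GSC (SYNPO2, adjusted p = 0.00144) and 2 than in blastoderm (SYNPO2, 0.0159, and MYH11, 0.0216). Both SYNPO2 and MYH11 were within background in all 4 groups, so these calls of lower carry no weight. Of all genes 22%, 20.2% and 24% were higher and 27.7%, 22.3% and 27.2% lower in that order, and 10.7% higher in all 3. KCNMB1, a potassium channel subunit of smooth muscle, averaged 9.61 in CEF, 3.83 in PGC, 5.05 in GSC and 2.92 in blastoderm, 23.5-fold higher in CEF than in GSC (adjusted p = 7.87e-09). CSPG4, a pericyte proteoglycan, averaged 7.46 in CEF, 3.55 in PGC, 4.36 in GSC and 3.41 in blastoderm, 8.57-fold higher in CEF than in GSC (adjusted p = 9.25e-09). The part of smooth muscle cells or pericytes in the CEF levels was not tested.

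Other genes of the contractile apparatus followed the same direction in most but not all cases. Of 43 measured contractile partners (actins, tropomyosins, myosins and proteins of stress fibres and adhesions), 34 were called higher and 3 lower in CEF than in PGC. Against GSC 30 were higher and 4 lower, and against blastoderm 35 were higher and 5 lower. Of all genes, 22%, 20.2% and 24% were called higher in that order, and 27.7%, 22.3% and 27.2% lower. The median log2 fold changes of the partners were 1.77, 1.09 and 1.95. These were below those of the 9 genes and above those of all genes (0.01, 0.02 and -0.05). In all 3 comparisons 29 partners were higher in CEF and 1 was lower, beside 10.7% and 9.31% of all genes. Among the 29 is LMOD2, which was within background in all 4 groups (2.71 in CEF). MYH11 and SYNPO2, also within background in all 4 groups, are among the partners called lower than in blastoderm, and SYNPO2 among those lower than in GSC. Between PGC and GSC, 3 partners were called higher in PGC and 21 lower, where 16.8% of all genes were called higher and 13.5% lower.

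Of the partners higher in all 3, the 3 with the largest smallest fitted fold are given. FHL1, a LIM-only protein of muscle, was at 6.99 in CEF, 1.78 in PGC, 2.07 in GSC and 2.34 in blastoderm. It was within background outside CEF and at least 10.4-fold higher in CEF. CNN2, a calponin of non-muscle cells, was at 9.87 in CEF, 5.55 in PGC, 6.25 in GSC and 5.78 in blastoderm, and its smallest fold was 12.3, against GSC. CSRP2, the paralogue of CSRP1, was at 11.86 in CEF, 6.22 in PGC, 7.19 in GSC and 8.25 in blastoderm, and its smallest fold was 12.3, against blastoderm. TMOD1, a capper of the slow-growing filament end, was the 1 partner lower in CEF in all 3 comparisons: it was within background in CEF, at 3.36, against 4.12 in PGC, 4.06 in GSC and 5.91 in blastoderm, and at least 1.37-fold lower than in GSC (adjusted p = 0.0163).

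**Figure D5:**
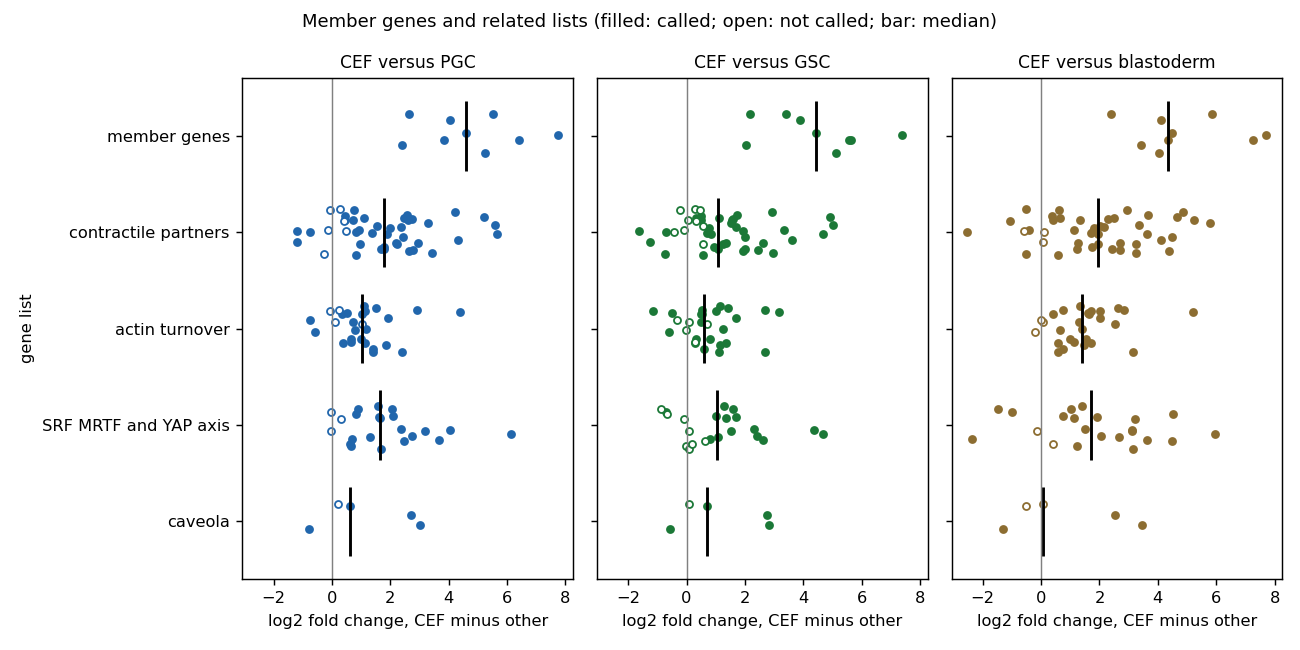
Log2 fold change of CEF over PGC, GSC and blastoderm (panels, horizontal axis) for the 9 measured genes and the genes of 4 related lists (rows), with filled points for called genes, open points for the others and a bar at each row's median. The medians of the fitted differences of the 9 genes lie between 4.35 and 4.59, and those of the contractile partners between 1.09 and 1.95.

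Of 27 measured genes of actin turnover, which nucleate, cap, sever or bundle filaments, 21 were called higher and 2 lower in CEF than in PGC. Against GSC 18 were higher and 3 lower, and against blastoderm 24 were higher and none lower, with 17 higher in all 3. Median log2 fold changes were 1.02, 0.59 and 1.40. The shares called over all genes are those given beside the contractile partners. ARPC1B, a subunit of the Arp2/3 complex that nucleates branched actin, was at 8.78 in CEF, 4.39 in PGC, 5.61 in GSC and 3.58 in blastoderm, with a smallest fold of 8.98 against GSC. DIAPH2, a formin, and ARPC1A, another Arp2/3 subunit, had smallest folds of 6.51 and 3.24, also against GSC.

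In the list of SRF, its cofactors and genes of the YAP and TGF-β pathways, 19 of 22 measured genes were called higher and none lower in CEF than in PGC. Against GSC 13 were higher and 1 lower, and against blastoderm 17 were higher and 3 lower, with 12 higher in all 3. Median log2 fold changes were 1.63, 1.04 and 1.70. For the shares called over all genes, see those beside the contractile partners. SRF itself was at 8.01 in CEF, 6.41 in PGC, 6.72 in GSC and 6.62 in blastoderm (smallest fold 2.44, against GSC, adjusted p = 9.48e-05). MRTFA, which moves into the nucleus as free actin falls, was at 7.60 in CEF, 6.29 in PGC, 6.53 in GSC and 4.92 in blastoderm, under its older symbol MKL1. MRTFB, under MKL2, was at 3.80 in CEF, 3.82 in PGC, 4.48 in GSC and 4.79 in blastoderm. It was called lower in CEF than in GSC (adjusted p = 0.0474) and blastoderm (adjusted p = 4.71e-03), and did not pass the test against PGC (-0.03, adjusted p = 0.945). The MRTFB arrays of CEF and of PGC lay on both sides of background. YAP1 was at 4.15 in CEF, 3.25 in PGC, 5.02 in GSC and 5.63 in blastoderm. It was called higher in CEF than in PGC (adjusted p = 0.0458) and lower than in blastoderm (adjusted p = 1.85e-03). The YAP1 arrays of CEF (3.45, 4.27 and 4.71) and PGC (2.67, 3.09 and 3.99) overlapped and lay on both sides of background.

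ANKRD1, a target of YAP, was at 8.03 in CEF, 1.90 in PGC, 3.37 in GSC and 2.07 in blastoderm. It was at least 21.4-fold higher in CEF than in PGC and blastoderm, where it was within background, and higher than in GSC (adjusted p = 1.92e-09), where 2 of 3 arrays were above background and the log2 difference was 4.32 with the other array set to background. TGFB1, a growth factor that induces smooth muscle actin in mammalian fibroblasts, was at 8.26 in CEF, 4.21 in PGC, 3.90 in GSC and 5.16 in blastoderm, with a smallest fold of 8.57. THBS1, a matrix protein, varied most between CEF arrays, at 5.67, 7.90 and 8.19, and its smallest fold was 6.15, against GSC.

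Of 5 measured caveola genes, 3 were called higher and 1 lower in CEF than in PGC, likewise 3 and 1 against GSC, and 2 and 1 against blastoderm. Of all genes, 22%, 20.2% and 24% were called higher in that order, and 27.7%, 22.3% and 27.2% lower. CAV2, the partner of caveolin 1, was at 8.46 in CEF, 5.44 in PGC, 5.62 in GSC and 4.99 in blastoderm, and its smallest fold was 7.15, against GSC. CAVIN1, which shapes the caveolar coat and is listed as PTRF on the array, was at 7.40 in CEF, 4.67 in PGC, 4.65 in GSC and 4.88 in blastoderm, with a smallest fold of 5.75, against blastoderm. PACSIN3 was lower in CEF in all 3, at 6.04 in CEF, 6.83 in PGC, 6.61 in GSC and 7.34 in blastoderm.

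Likeness of pattern was measured as the root mean square difference over the 12 arrays, after each gene was centred on its own 12-array mean. ACTA2 and CAV1 were nearest to each other (0.32), as were TPM1 and MYL9 (0.56) and TAGLN and ACTG2 (0.73). For CSRP1 (0.55) and ACTA1 (0.80) the nearest of the 9 genes was CAV1, and for CALD1 (0.93) it was ACTG2. The mean of the 9 centred profiles was 3.49, 3.56 and 3.43 in CEF, -1.41, -1.42 and -0.85 in PGC, -0.91, -0.85 and -0.97 in GSC, and -1.25, -1.34 and -1.48 in blastoderm. Of the other genes, those nearest to that mean profile were PTX3 (0.22), PDPN (0.28), EDN2 (0.285), EN1 (0.30), TRPC6 (0.30), METTL7A (0.30), FAM198B (0.32), ITGA11 (0.33), SULF1 (0.35) and TNFRSF6B (0.36), as named by the array's annotation. PTX3 averaged 7.42 in CEF, 2.83 in PGC, 3.26 in GSC and 2.85 in blastoderm, within background outside CEF by its group means. So were the others of these genes, except METTL7A in GSC, at 4.10. Outside CEF their likeness, and that of ACTA2 to CAV1, therefore rests on values within background. The likeness of CSRP1 and ACTA1 to CAV1 rests there on CAV1 values within background.

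The size of the fold changes depends on the low end of the scale. Adding an offset of 64 to the linear values before taking log2 left all 27 comparisons of the 9 genes with CEF called, but moved 19 of the 27 folds by over 1.5 times, to between 1.91 and 62.2. For TAGLN against PGC the fold was 62.2 with that offset.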

How the data were processed

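The authors deposited 1 table of log2 values for 38535 probe sets, with 1 column for each of the 12 arrays. The log2 scale was read from the values. Per the submitters' processing notes MAS5 was used, with neither its role nor a version, and the deposited values are already scaled between arrays. Raw intensity files were not used here. Manufacturer controls (96) and viral and reporter probe sets (746) were left out. Of the 37693 probe sets left, 27166 had 1 gene symbol in the platform annotation, which can be old, 177 had several and 10350 had none, and 27159 of the symbols were found in RefSeq. Of several probe sets, the one with the highest 12-array mean stands for the gene (an _x_at set only for want of another). No coordinates or sequences are given, since the array's probe sequences were not used here.

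Group means were fitted in limma 3.58.1 (R 4.3.3) over all 12 arrays, with an intensity trend and 8 residual degrees of freedom. The 6 comparisons were tested two-sided, with no filter on low values. The code was tested on simulated data. The number of arrays limits the precision, and PGC, GSC and CEF samples pool several embryos, as blastoderm samples do. The genes, lists and tests were chosen with earlier results of these data known, so their counts are not independent evidence. Named are all 10 genes, of each related list up to 3 genes called in 1 direction in all 3 comparisons with CEF by their smallest fold, ACTB, ACTG1, SRF and MYOCD, the 10 genes nearest to the mean profile, and defining cell type markers. ACTC1, MYLK, MRTFA, MRTFB, YAP1, MYH15, TNNI2, MYL1, KCNMB1, CSPG4, PDE5A, SYNPO2 and LMOD2 were named after their values were seen. Alternatives were offsets of 16 and 64, quantile normalization, a filter on low values, no intensity trend, a replicate block, median centring, only the compared groups, the mean of a gene's probe sets, and each array left out. One related gene list is not reported here.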

Additional observations from a re-analysis of the deposited data

How the results depend on the processing

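All 27 comparisons of the 9 genes with CEF kept their direction and stayed called in the 21 alternative analyses, and an offset of 16 or 64 moved 10 or 19 of their folds by over 1.5 times. Calls among the uncultured groups were less stable. In PGC against GSC, 3 genes were called lower, and 2 to 5 when single arrays were left out (5 without PGC replicate 3); 4166 probe sets were called lower, and 2675 to 5117 (2675 without PGC replicate 1). In PGC against blastoderm, 2 genes were called higher, 1 with an offset of 16, 1 with an offset of 64 and 1 to 3 when single arrays were left out (1 without blastoderm replicate 3); 1 gene was called lower, and 1 to 2 (2 without PGC replicate 3). The cause was not tested. TPM1 in GSC against blastoderm (0.24) was called with quantile normalization (0.29, adjusted p = 0.0445), with the mean of its probe sets (0.40, adjusted p = 0.0221) and without blastoderm replicate 1 (0.32, adjusted p = 0.0451). TPM1 in PGC against blastoderm was called without PGC replicate 3 (-0.31, adjusted p = 0.045). ACTG2 in PGC against GSC was not called with an offset of 16 (adjusted p = 0.052) or 64 (adjusted p = 0.2), with only these groups in the fit (adjusted p = 0.0563), or without PGC replicate 1 (0.0893), PGC replicate 2 (0.106), GSC replicate 1 (0.076) or GSC replicate 2 (0.123). ACTG2 in PGC against blastoderm was not called with an offset of 16 (adjusted p = 0.0824) or 64 (adjusted p = 0.32).

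Replicate numbers are shared by the groups, and the labels state no pairing, so same-numbered arrays were not taken as pairs. Whether PGC and GSC samples of the same number came from the same gonads is not known from the sources used here. The deviations of same-numbered arrays from their group means had correlations from -0.14 to 0.18, which cannot settle how samples were collected. The replicate block changed 0 of 48 calls of the genes, with 9 genes higher in CEF each time. It was fitted over all 4 groups, so it does not test a pairing of PGC with GSC alone. With the block 7144 probe sets were called higher in CEF than in PGC, against 7168 without it. Signal near background limits ACTA2 and CAV1 outside CEF to a bound.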
